A study of Homo sapiens with 12 samples.

Results

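The liver makes most of the proteins of blood clotting and of complement. In coagulation, vitamin K-dependent proteases and their cofactors are activated in a cascade that ends in thrombin, which cuts fibrinogen to fibrin. Serpins and the protein C pathway hold the cascade back, and plasmin dissolves the clot. In complement, the classical, lectin and alternative routes each cleave C3 and C5, the terminal components form the pore, and regulators such as factor I and C4b-binding protein stop the process. Hepatocytes secrete nearly all of these proteins, and their genes are largely driven by factors that define the hepatocyte, HNF4A and C/EBP among them. A set of 46 such genes was followed in PLC/PRF/5, an established human hepatoma cell line. The genes were chosen by name, as the secreted clotting and complement proteins of the liver with their close partners, and all 46 were found among the 57820 genes of the files.

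RNA-seq had been done on 12 libraries. They were 4 of wild-type control cells (control 1 to 4), 4 in which HKDC1, a hexokinase domain gene, had been knocked out (KO), and 4 of knockout cells to which HKDC1 had been returned (KO_RES). KO and KO_RES each held 2 lines, KO1 and KO2, with 2 libraries a line. A library is named by line and number, so KO 2_1 is number 1 of the line labelled KO2, and values of KO or KO_RES are given in the order 1_1, 1_2, 2_1, 2_2. The labels give no treatment or time. They do not state how the gene was disrupted, how it was returned, whether a line is 1 clone, or whether libraries came from separate cultures, and p-values therefore cover no more than the variation among these libraries, some of which may be technical.

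Total counts per library lay between 57333288 and 71853616 in control, 42609910 and 68040103 in KO, and 36075411 and 60154638 in KO_RES. HKDC1 stood between 124 and 183 CPM (each count divided by its library's TMM-adjusted total) in control, at 153, 147, 91.2 and 49.3 CPM in KO and at 1237, 1546, 507 and 626 CPM in KO_RES, so that its mRNA was not lowered in the libraries labelled KO1. The genotype field names another group than the title for 4 libraries, and titles were followed. Of 10 hepatocyte markers, 9 or 10 were above 3 counts in every library, with summed levels of 7612 to 19740.3 CPM in control, 1842 to 24751 in KO and 1914 to 31673 in KO_RES. Both hepatoma markers, AFP and GPC3, were above 3 counts throughout. Albumin (ALB) divided the controls, with 908 CPM and 822 CPM in the pair numbered 1 and 2 but 23.0 CPM and 28.2 CPM in the pair numbered 3 and 4. In a culture, fewer cells of a kind and less RNA per cell cannot be told apart.

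Promoters of 6 members are shown first, because the fibrinogen genes and F13B were called lower in at least KO2, C4BPA divided the controls and MBL2 differed between the lines. They are the 250 bases before the start site in RefSeq on GRCh38.p14, written 5′ to 3′ on the strand of the gene, with the first listed start taken where there were several. Capitals mark any match, on either strand, to 3 motifs: CAAAGNNCA (HNF4), TTGCNNAA (C/EBP) and TTCNNNGAA (STAT3).
FGA, chr4:154590743-154590992, minus strand: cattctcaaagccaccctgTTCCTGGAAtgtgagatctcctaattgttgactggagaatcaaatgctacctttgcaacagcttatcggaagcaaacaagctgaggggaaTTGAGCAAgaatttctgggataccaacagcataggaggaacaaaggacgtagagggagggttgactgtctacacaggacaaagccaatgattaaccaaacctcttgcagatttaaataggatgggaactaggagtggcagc
FGB, chr4:154562730-154562979, plus strand: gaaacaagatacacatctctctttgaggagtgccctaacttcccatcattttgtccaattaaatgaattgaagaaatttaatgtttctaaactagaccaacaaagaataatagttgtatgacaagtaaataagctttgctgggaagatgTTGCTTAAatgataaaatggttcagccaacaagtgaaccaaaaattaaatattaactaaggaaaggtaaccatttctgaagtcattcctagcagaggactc
FGG, chr4:154612657-154612906, minus strand: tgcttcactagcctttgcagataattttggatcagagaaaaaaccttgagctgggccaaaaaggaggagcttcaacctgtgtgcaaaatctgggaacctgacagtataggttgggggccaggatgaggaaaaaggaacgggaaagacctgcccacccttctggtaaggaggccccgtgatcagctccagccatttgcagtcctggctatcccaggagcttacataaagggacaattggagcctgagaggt
F13B, chr1:197067261-197067510, minus strand: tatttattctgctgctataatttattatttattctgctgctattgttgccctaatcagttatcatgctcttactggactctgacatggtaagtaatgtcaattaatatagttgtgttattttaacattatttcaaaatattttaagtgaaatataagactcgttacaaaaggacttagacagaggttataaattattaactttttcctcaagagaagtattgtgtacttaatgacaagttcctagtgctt
C4BPA, chr1:207103983-207104232, plus strand: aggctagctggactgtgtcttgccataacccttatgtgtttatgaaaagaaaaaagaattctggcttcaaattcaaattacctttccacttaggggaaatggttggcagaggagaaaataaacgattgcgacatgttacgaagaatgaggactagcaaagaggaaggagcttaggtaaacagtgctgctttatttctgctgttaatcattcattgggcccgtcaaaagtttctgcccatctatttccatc
MBL2, chr10:52772785-52773034, minus strand: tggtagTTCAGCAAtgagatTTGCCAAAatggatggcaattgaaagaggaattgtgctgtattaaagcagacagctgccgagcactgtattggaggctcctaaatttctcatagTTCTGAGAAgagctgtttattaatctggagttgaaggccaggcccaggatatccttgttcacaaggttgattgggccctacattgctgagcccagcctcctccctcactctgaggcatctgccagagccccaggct

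FGA held a STAT3 match and a C/EBP match, FGB a C/EBP match, and MBL2 2 C/EBP matches and a STAT3 match. In FGG, F13B and C4BPA none of the 3 motifs was found. Motifs of other liver factors, HNF1 among them, are not marked or counted here. A promoter without the 3 motifs may therefore still hold sites of other liver factors. A RefSeq promoter was found for 37 of the 46 members and searched over 300 bases, from 250 before to 50 after the start. The HNF4 motif lay in 5 of these 37 and in 5.28% of the 35116 promoters of the table, the C/EBP motif in 9 of 37 and 10.5%, and the STAT3 motif in 12 of 37 and 7.66%. A match is a description of the letters only. HNF4A itself was at 189.6 to 221 CPM in control and 143 to 208 CPM in KO.

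Of the 46 members, 39 had enough counts to be tested. F9 (clotting factor IX) had 25 counts over the 12 libraries, C9 (the pore-forming terminal component) had 12 and PLG (plasminogen) had 7. C2, CFB, C4A and C4B, which encode the C3-cleaving complement proteases and the near-identical C4 copies, were listed at 0 in all 12 libraries. These 4 genes lie in the MHC region of chromosome 6. Widely expressed genes of that region, CSNK2B, RING1 and GNL1, were also at 0. The zeros of C2, CFB, C4A and C4B are therefore given as listed values and not read as expression. How reads were assigned in this region was not tested.

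**Figure D1:**
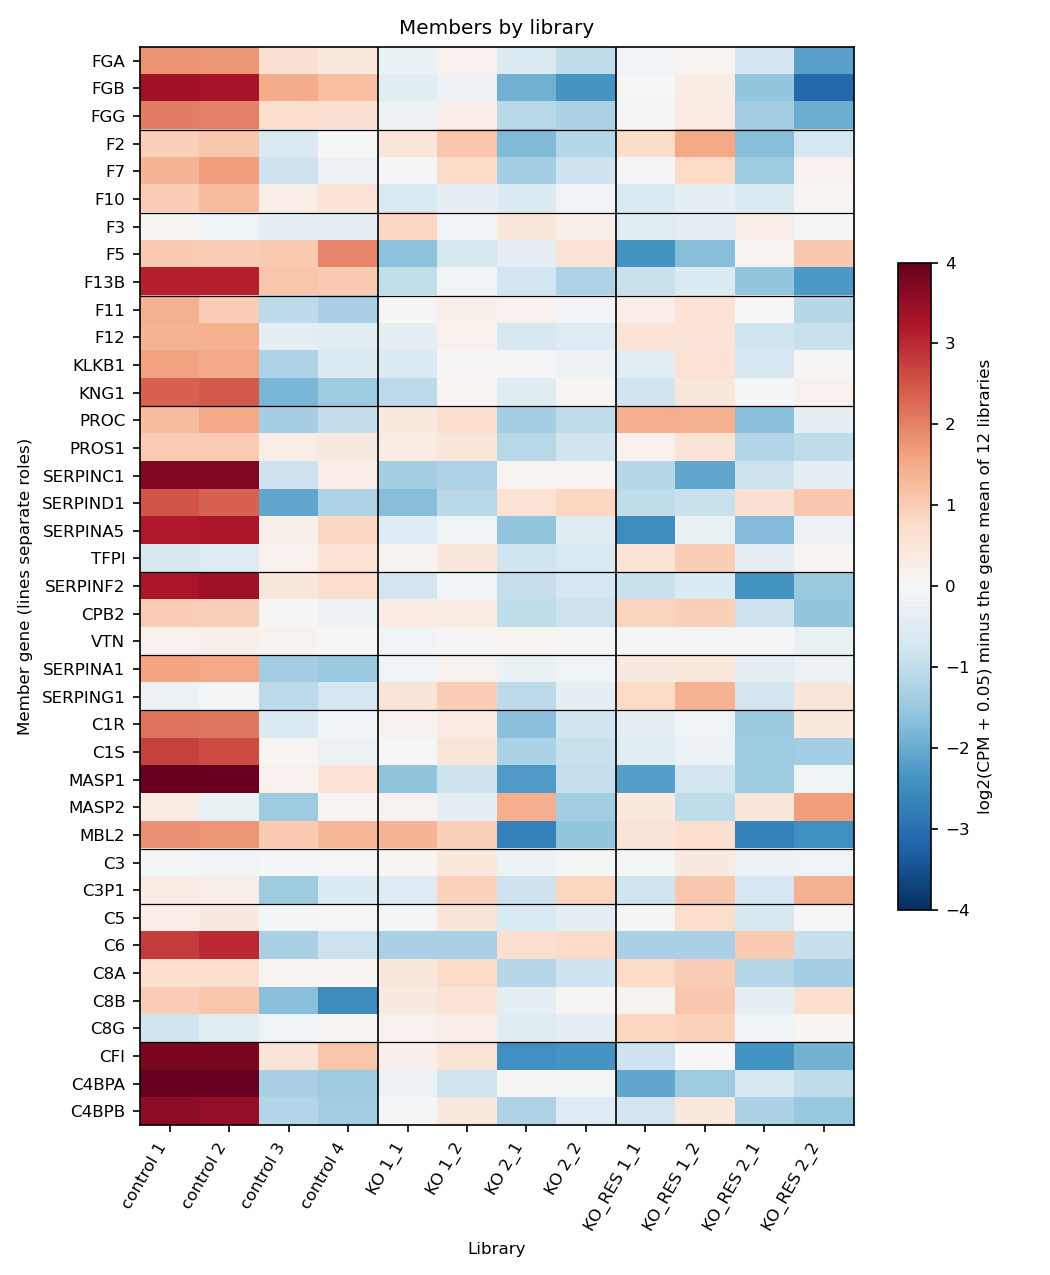
Colour gives log2(CPM + 0.05) minus the gene's mean over the 12 libraries for the 39 members tested (rows, in the order of their roles) in each library (columns), with values beyond 4 drawn at the end of the scale. Controls 1 and 2 are red in most rows, controls 3 and 4 are not, and the right-hand blocks of KO and KO_RES look alike within a line.

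The controls did not agree on these genes. Controls 1 and 2 both lay above controls 3 and 4 for 34 of the 39 members tested (87.2%), while 30.4% of all genes tested did so, and both lay below for 3 (C3, TFPI and C8G), against 32.3% of all genes. The range was wide, from vitronectin (VTN), at 745, 748, 724 and 645 CPM in controls 1 to 4, to C4BPA, the alpha chain of C4b-binding protein, at 8.41, 7.97, 0.101 and 0.0886 CPM. The members' counts and median in each comparison with control below are therefore also given against a single pair of controls. This choice was made with these values known. Single-pair values are not given for most single members, nor for the other gene lists and markers. What sets the pairs apart is not given by the labels and was not tested.

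With both lines in 1 group, 6 members were lower in KO than in control and 0 were higher, out of 39 tested (15.4%), while 6.28% of the 19200 genes tested passed, 2.87% higher and 3.41% lower. Passing, or being called, means an adjusted p under 0.05 in the quasi-likelihood fit of edgeR. The 6 were FGB, F13B, F10, MASP1, SERPINA5 and SERPINF2. The members' median log2 fold change was -1.07 and that of all genes 0.01, and 33 of 39 had a negative value. At an unadjusted p under 0.05 there were 17 lower and 1 higher (F3), and DESeq2 called 13 lower and 0 higher (12.2% of all genes). With the lines as separate groups and averaged, 14 were lower (16.1%). In the 8 libraries with agreeing title and genotype field 0 were called (0.36% of all genes), with 11 lower and 1 higher at an unadjusted p under 0.05. Leaving out 1 library moved the count of 6 to 2 without KO 1_1 or KO 2_1 and to 3 without KO 2_2, control 1 or control 2. F10 and F13B were called in each of the 8 fits that left out a library. Against controls 1 and 2 alone 18 members were lower (7.32% of all genes were called) and the median was -1.68. Against controls 3 and 4 alone 0 of 38 were lower by edgeR (at an unadjusted p under 0.05, 6 were lower and 6 higher; DESeq2 was not run there), 1 was higher (SERPINA1; 1.67% of all genes) and the median was -0.04.

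The fibrinogen chains were among the members with the most counts. FGA, FGB and FGG, which encode the alpha, beta and gamma chains, are neighbours on chromosome 4. FGB stood at 6174, 5878, 1641 and 1372 CPM in controls 1 to 4, at 434, 506, 156 and 116 CPM in KO and at 581, 722, 204 and 67.9 CPM in KO_RES. All 8 knockout and rescue libraries were thus below all 4 controls, and line 2 was below line 1. The log2 fold change of FGB in KO was -3.64 (SE 0.82, adjusted p = 0.0253). This call ended without any of the 4 KO libraries or without control 1 or 2.

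FGA stood at 7995, 7677, 3482 and 3083 CPM in control, at 1894, 2573, 1527 and 1128 CPM in KO and at 2124, 2482, 1336 and 503 CPM in KO_RES. FGG followed at 4258, 4155, 1676 and 1576 CPM in control, 883, 1235, 471 and 425 CPM in KO and 975, 1294, 394 and 258 CPM in KO_RES. For both chains KO and control did not overlap, but the values of -1.64 (SE 0.48, adjusted p = 0.0671) and -1.95 (SE 0.56, adjusted p = 0.0626) did not pass with both lines together. The chains did not keep their proportions. The ratio of FGB to FGA counts was 0.772, 0.766, 0.471 and 0.445 in control, 0.229, 0.197, 0.102 and 0.103 in KO and 0.273, 0.291, 0.153 and 0.135 in KO_RES. That of FGG to FGA lay between 0.481 and 0.541 in control between 0.308 and 0.480 in KO, and was 0.459, 0.521, 0.295 and 0.513 in KO_RES, where 2 of 4 lay within the control range. These are ratios of counts within a library, so that gene lengths cancel when libraries are compared.

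**Figure D2:**
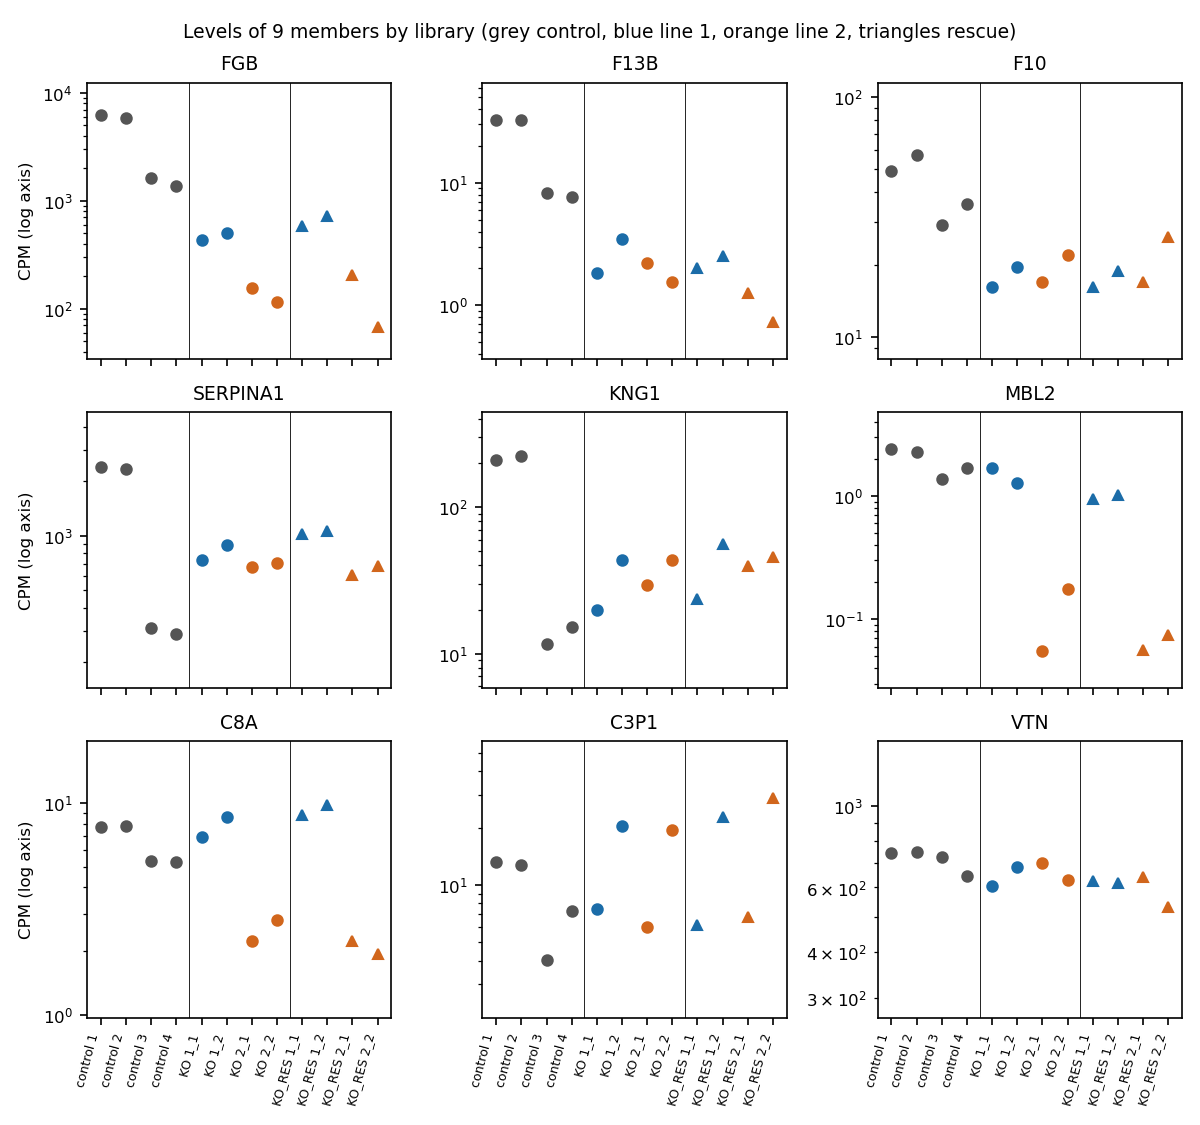
Level in CPM (log axis, its range set for each gene) of 9 members in each of the 12 libraries: grey circles are control, blue line 1, orange line 2, circles KO and triangles KO_RES. FGB, F13B and F10 lie below all controls in the 8 knockout and rescue libraries, SERPINA1 and KNG1 lie between the pairs of controls, MBL2 and C8A are low in line 2, C3P1 is high in knockout and rescue libraries numbered 2, and VTN stays between 532 and 748 CPM.

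Among the clotting proteases and cofactors, F10 had the smallest standard error of the 6 called. F10 encodes factor X, which becomes the thrombin-forming protease, and stood at 48.9, 57.1, 29.3 and 35.9 CPM in control, 16.2, 19.6, 16.9 and 22.0 CPM in KO and 16.1, 18.8, 16.9 and 26.0 CPM in KO_RES. Every KO library was below every control, and the log2 fold change was -1.20 (SE 0.22, adjusted p = 0.00980). F7, factor VII, is the neighbour of F10 on chromosome 13 and overlapped the controls, at 41.6, 51.6, 9.09 and 13.7 CPM in control and 15.8, 27.1, 6.40 and 9.19 CPM in KO. F13B, the carrier subunit of the clot-stabilising factor XIII, stood at 32.7, 32.4, 8.21 and 7.71 CPM in control, 1.85, 3.49, 2.20 and 1.55 CPM in KO and 2.01, 2.55, 1.25 and 0.724 CPM in KO_RES. It fell by 3.16 on the log2 scale (SE 0.57, adjusted p = 0.00911), without overlap. F3, tissue factor, which starts coagulation, was at 9.50, 8.19, 7.23 and 7.25 CPM in control, 16.0, 8.10, 12.5 and 10.4 CPM in KO and 6.56, 6.82, 10.9 and 8.81 CPM in KO_RES. Its difference from control of 0.55 (SE 0.23, adjusted p = 0.182) was not called.

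The contact system holds F11, F12, KLKB1 and KNG1, which encode factors XI and XII, prekallikrein and kininogen. In none of the 4 was a difference from control called (adjusted p from 0.219 to 0.733). KNG1 was at 211, 223, 11.6 and 15.1 CPM in control and at 19.9, 43.3, 29.3 and 43.2 CPM in KO, so that all KO libraries lay between the pairs of controls. The same position was taken by F11, KLKB1, C8B, C4BPA and SERPINA1. In all 6 of 39 members (15.4%), and 0.958% of all genes tested, were below controls 1 and 2 and above controls 3 and 4 in every KO library. SERPINA1, alpha-1 antitrypsin, stood at 2418, 2335, 309.5 and 287 CPM in control, 737, 895, 674 and 710.3 CPM in KO and 1029.5, 1068, 608 and 686 CPM in KO_RES. Its log2 fold change in KO was -0.83 over all controls (SE 0.60, adjusted p = 0.464), -1.68 against controls 1 and 2 (adjusted p = 0.00294) and 1.34 against controls 3 and 4 (adjusted p = 0.0371).

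**Figure D3:**
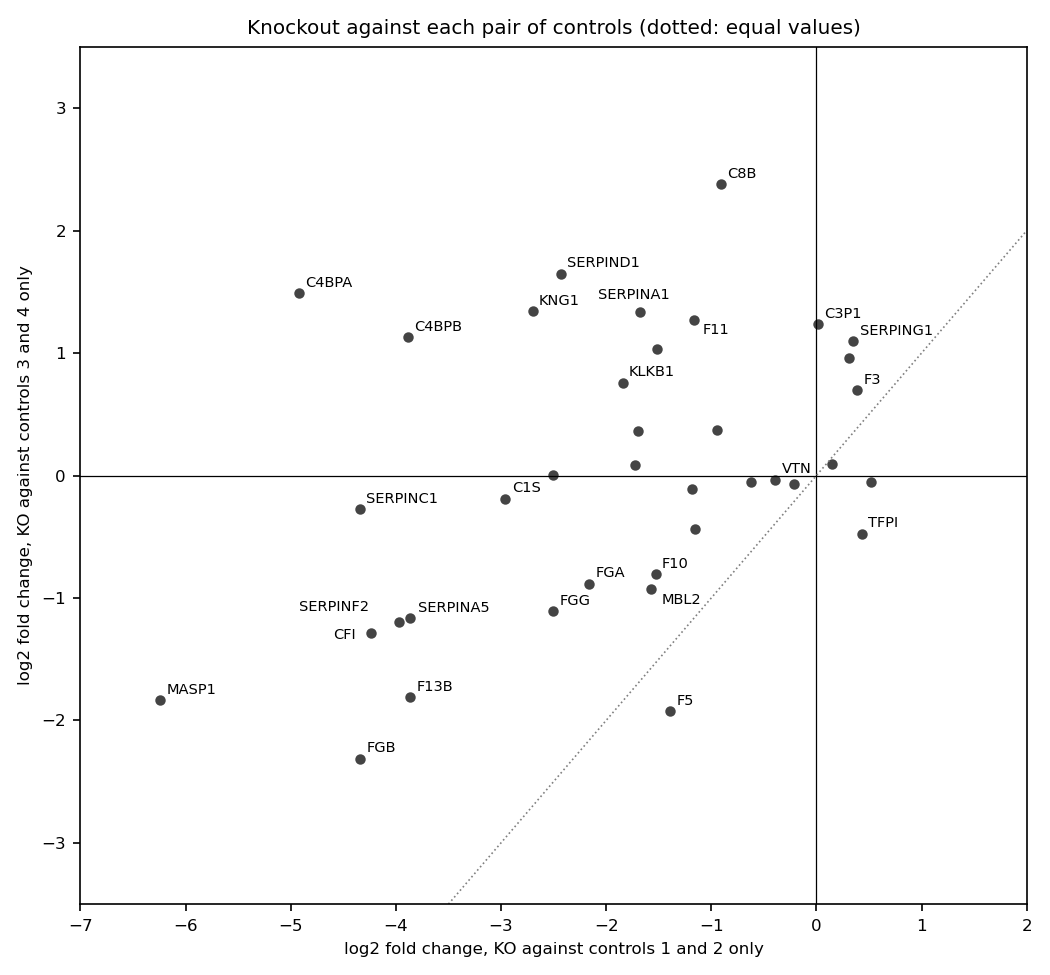
Log2 fold change of KO against controls 1 and 2 only (horizontal) and against controls 3 and 4 only (vertical) for the 38 members tested in both fits, with a dotted line where the values are equal. Most members lie above the dotted line, FGB, F13B and MASP1 are below 0 on both axes, and SERPINA1 is at -1.68 on the horizontal and 1.34 on the vertical axis.

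Of the anticoagulants, SERPINA5 was called. It encodes the protein C inhibitor and stood at 51.9, 54.4, 6.57 and 9.96 CPM in control, 3.94, 4.96, 1.85 and 4.0 CPM in KO and 0.976, 4.70, 1.66 and 4.76 CPM in KO_RES, below every control in all 8. Its log2 fold change was -3.06 (SE 0.74, adjusted p = 0.0331), and the call ended without any of the 4 KO libraries or without control 1 or 2. SERPINC1, antithrombin, was at 5.83, 5.80, 0.203 and 0.496 CPM in control and 0.128, 0.140, 0.440 and 0.435 CPM in KO, so that control 3 lay within the KO range, control 4 just above it and controls 1 and 2 far above (-3.41, SE 0.97, adjusted p = 0.0599). PROC (protein C), SERPIND1 (heparin cofactor II) and TFPI (tissue factor pathway inhibitor) were not called, with log2 fold changes of -0.73, -1.49 and -0.08.

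In fibrinolysis, SERPINF2 was called. It encodes alpha-2 antiplasmin, the main inhibitor of plasmin, and stood at 91.6, 101, 13.2 and 15.5 CPM in control, 5.61, 8.57, 4.99 and 5.93 CPM in KO and 5.12, 6.54, 1.79 and 3.34 CPM in KO_RES. All 8 were below all controls, with a log2 fold change in KO of -3.14 (SE 0.67, adjusted p = 0.0193) that was not called without KO 1_1, KO 2_1, KO 2_2, control 1 or control 2. VTN, vitronectin, was at 605, 683, 700.3 and 629 CPM in KO (log2 fold change -0.13, SE 0.10, adjusted p = 0.510).

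At the start of complement, MASP1 was called. It encodes a protease of the lectin pathway and stood at 23.8, 25.5, 1.01 and 1.35 CPM in control, 0.256, 0.468, 0.147 and 0.449 CPM in KO and 0.156, 0.510, 0.299 and 0.784 CPM in KO_RES. The log2 fold change in KO was -5.29 (SE 1.08, adjusted p = 0.0165), without overlap. It was -6.24 against controls 1 and 2 and -1.84 against controls 3 and 4 (adjusted p = 0.160), and the call ended without KO 1_1 or KO 2_1. C1S, the C1 protease that cuts C4, was at 52.3, 48.1, 8.33 and 6.65 CPM in control and 7.81, 11, 3.25 and 4.21 CPM in KO. Its neighbour C1R divided the controls likewise, at 6.76, 6.40, 0.980 and 1.36 CPM.

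C3, the component on which all routes converge, was not called. It stood at 723, 715, 745 and 776 CPM in control, 808, 1037, 669.5 and 728 CPM in KO and 743, 994, 655 and 702 CPM in KO_RES (KO against control 0.13, SE 0.16, adjusted p = 0.687). In the terminal pathway C5 was at 188 to 257 CPM in control and 132 to 285 CPM in KO, and none of C5, C6, C8A, C8B and C8G was called with both lines together. The regulators CFI (factor I), C4BPA and C4BPB had a median log2 fold change of -3.39, and none was called (adjusted p from 0.0574 to 0.124). CFI stood at 91.3, 91.5, 9.54 and 14.5 CPM in control and 7.62, 9.72, 1.17 and 1.26 CPM in KO. The mean of controls 1 and 2 was 7.59 times that of controls 3 and 4.

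The lines were then compared with the same 4 controls one at a time, which means that both comparisons share their controls. In the libraries labelled KO1, whose HKDC1 mRNA was not lowered, 8 members were lower and 1 was higher of 39 (23.1%). Of 20559 genes 18.1% were called, 8.36% higher and 9.74% lower. The members' median was -0.84 (all genes -0.02). The value of C6, at 0 counts in KO1, is uncertain but lies below that median either way, so it could not move it. Lower were F10 (-1.26), F13B (-2.93), F5 (-2.41), FGB (-3.004), FGG (-1.46), MASP1 (-5.18), SERPINC1 (-4.51) and SERPINF2 (-2.97). SERPING1, the C1 inhibitor, was higher, by 1.24 (SE 0.36, adjusted p = 0.0375). F5, the cofactor factor V, stood at 16.1, 15.3, 16.1 and 29.9 CPM in control, 2.41, 4.92, 5.82 and 11.1 CPM in KO and 1.43, 2.35, 8.25 and 16.5 CPM in KO_RES. Unlike most members it did not separate the pairs of controls, and all KO libraries were below all controls. The count of 9 was 0 without KO 1_1, 2 without KO 1_2 (F5 lower and F3 higher), 4 without control 1 and 5 without control 2. DESeq2 called 15 (22.9% of all genes), and the fit without a filter on low counts 22 (12.7%). The smallest adjusted p of a member was 5.3e-44 without the filter and 0.0067 in the main fit of the same libraries, so these 2 counts are not comparable. Against controls 1 and 2 alone 24 members were lower and 2 higher (24.3% of all genes called), and against controls 3 and 4 alone 5 were lower and 6 higher (17.6%). The median was -1.57 against the first pair and 0.31 against the second, so that its direction depended on the pair.

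In KO2, 13 members were lower and 0 higher of 39 (33.3%, against 10% of all genes, 4.79% higher and 5.24% lower), with a median of -1.49 and no member higher at an unadjusted p under 0.05 or by DESeq2. The clotting members were F2 (-1.93), F10 (-1.14), F13B (-3.43), FGA (-2.07), FGB (-4.79), FGG (-2.70), PROS1 (-1.64), SERPINF2 (-3.34) and CPB2 (-1.49). CPB2 encodes a carboxypeptidase that slows fibrinolysis and stood at 40.5, 39.5, 20.8 and 17.8 CPM in control and 25.5, 25.0, 9.98 and 11.1 CPM in KO. The complement members were C1S (-2.95), CFI (-5.40), C8A (-1.38) and MBL2 (-3.98), with adjusted p from 0.000650 (MBL2) to 0.0493 (C1S). MBL2 was called in all 6 fits that left out a library. The count was 1 without KO 2_1 (MBL2), 3 without KO 2_2, 8 without control 1 and 9 without control 2. DESeq2 called 20 lower (15.2% of all genes called), and the fit without a filter on low counts 28 (8.72%). Without the filter the smallest adjusted p of a member was 1.1e-90, so that count is not comparable with the main one. Against controls 1 and 2 alone 27 members were lower and 0 higher (19.0% of all genes called; 0 higher also at an unadjusted p under 0.05), and against controls 3 and 4 alone 11 were lower and 3 higher (10.6%). The medians were -1.99 and -0.51.

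**Figure D4:**
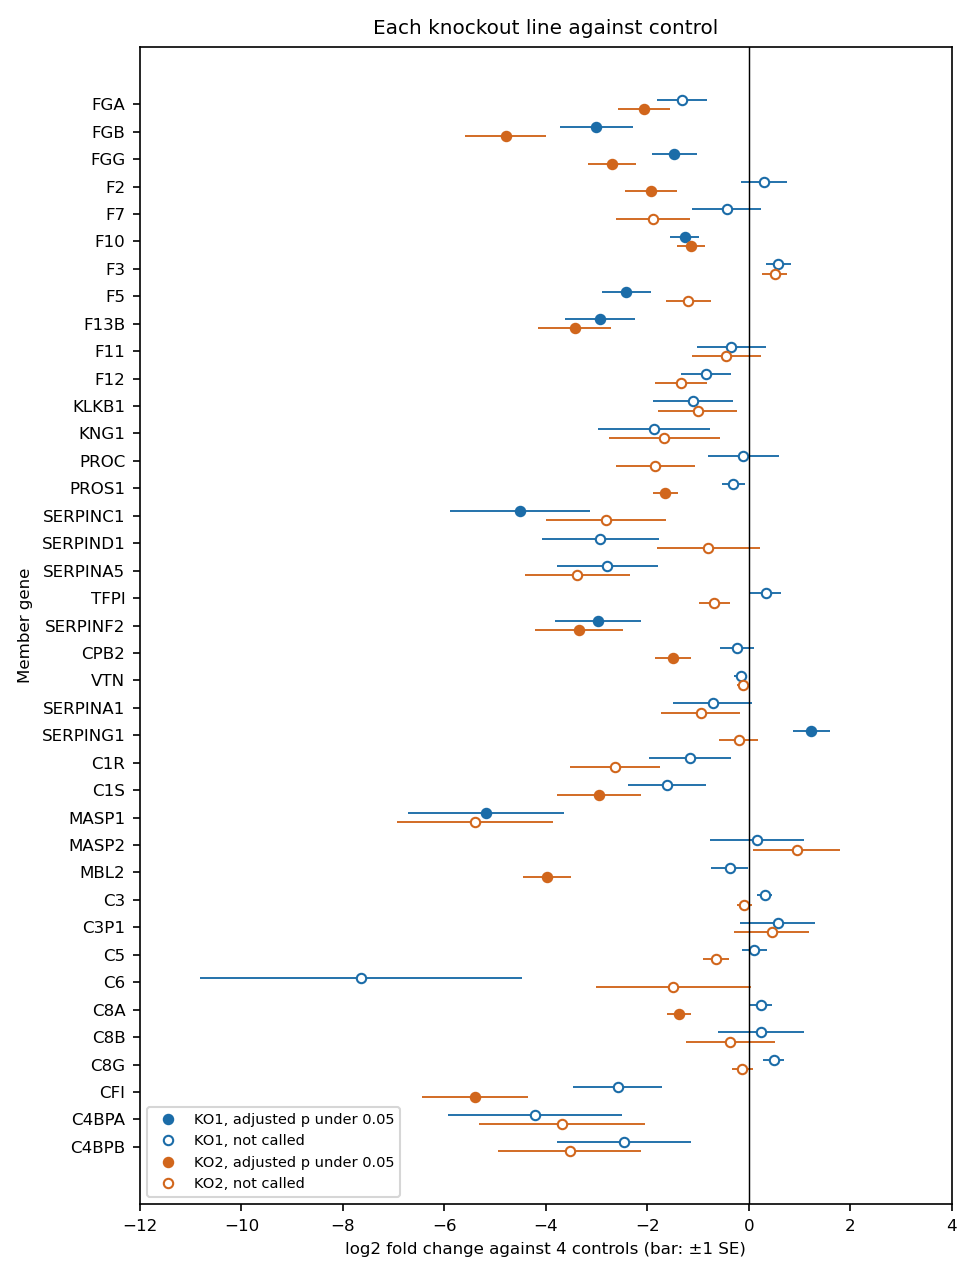
Log2 fold change against the 4 controls for each of 39 members in KO1 (blue) and KO2 (orange), with bars of 1 SE and filled points where the adjusted p was under 0.05. Orange points lie further left for MBL2, C8A, F2 and PROS1, and the point of C6 in KO1 rests on 0 counts in both libraries, so that its place depends on the fit.

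KO2 was lower than KO1 for 4 of 39 members and higher for 0 (10.3%, against 12% of all genes, 6.26% higher and 5.72% lower). The 4 were MBL2, C8A, F2 and PROS1. At an unadjusted p under 0.05 there were 13 lower and 1 higher, and DESeq2 called 9 lower and 0 higher (16.6% of all genes called). Without a filter on low counts 21 were called (9.08%), and with number as a block 24 (38.5% of all genes called). The smallest adjusted p of a member was 4.1e-27 and 1.4e-24 in these 2 fits and 0.00120 in the main fit, so the counts are not comparable. MBL2, mannose-binding lectin, which recognises microbial sugars, stood at 2.38, 2.28, 1.37 and 1.67 CPM in control, 1.69, 1.26, 0.0551 and 0.177 CPM in KO and 0.937, 1.02, 0.0561 and 0.0739 CPM in KO_RES. In line 1, KO 1_1 lay within the range of control, while KO 1_2 and both rescue libraries lay below every control. All 4 libraries of line 2 were lower still, KO 2_1 and KO_RES 2_1 at 3 counts. The difference between the KO lines was -3.60 (SE 0.49, adjusted p = 0.00120).

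C8A, a chain of the terminal component C8, was at 7.74, 7.80, 5.35 and 5.30 CPM in control, 6.93, 8.62, 2.24 and 2.80 CPM in KO and 8.79, 9.85, 2.23 and 1.94 CPM in KO_RES (KO2 against KO1 -1.62, SE 0.26, adjusted p = 0.00335). Its neighbour C8B was at 1.90, 2.13, 1.14 and 1.51 CPM in KO (KO2 against KO1 -0.60, not called), and the ratio of C8A to C8B counts was 3.65 and 4.04 in KO1 and 1.97 and 1.86 in KO2. In controls 1 to 4 this ratio was 2.63, 2.42, 12.7 and 24.9, a wider spread than that between the lines. F2, prothrombin, stood at 157, 173, 54.4 and 80.0 CPM in control, 113, 173, 23.7 and 37.2 CPM in KO and 136, 238, 24.9 and 49.8 CPM in KO_RES. Line 2 was below line 1 by 2.23 on the log2 scale (SE 0.56, adjusted p = 0.0281), and this call was lost without any 1 of the 4 KO libraries. PROS1, the protein C cofactor protein S, was at 191, 191, 114 and 122 CPM in control, 118, 132, 44.6 and 54.5 CPM in KO and 107, 139, 42.1 and 47.3 CPM in KO_RES (-1.33, SE 0.26, adjusted p = 0.00905). PROS1 has a pseudogene copy with which reads could be shared, and its call was lost without KO 1_2 or KO 2_1, which left 2 members called.

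The members were next compared between cells with HKDC1 returned and knockout cells. No member was called in KO_RES against KO (0 of 39, and 0% of the 19200 genes), with a median log2 fold change of 0.14 against 0.00062 for all genes. At an unadjusted p under 0.05 there was 1 lower (F3, -0.51, SE 0.23, adjusted p = 0.99997) and 0 higher, and DESeq2 called 0 members (0.0312% of all genes). With each rescue library paired with its knockout library by line and number, 0 of 38 members were called (0.0437% of all genes), 6 were higher and 5 lower at an unadjusted p under 0.05, and the smallest adjusted p was 0.109. In the main fit, without pairs, the fold changes ran from -1.25 (C4BPA, SE 1.25) to 0.80 (PROC, SE 0.79). Sizeable differences in single genes thus remain within the error of that fit, which includes the difference between lines. HKDC1 itself had a log2 fold change of 3.15 in that fit and was not called. Within the lines HKDC1 was called, at 3.22 in line 1 and 3.01 in line 2. The absence of calls in that fit therefore does not show an absence of change. With the pairs, C4BPA and PROC were both at an unadjusted p under 0.05. Within the lines, 0 of 39 members were called in KO1_RES against KO1, where 0.195% of genes were, and 0 in KO2_RES against KO2, where 0.00486% were. At an unadjusted p under 0.05 these were 2 (C8G higher, F3 lower) and 0. The difference of the rescue effect between the lines was called for 0 members, with 0 at an unadjusted p under 0.05 and 0% of genes called. As in KO, 11 of 39 members were below all 4 controls in every KO_RES library (28.2%, and 7.46% of genes), against 9 of 39 in KO (23.1%, and 8.67% of genes).

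C3P1 was higher in knockout and rescue libraries numbered 2. This C3-like pseudogene was at 13.3, 12.8, 4.0 and 7.32 CPM in control, 7.47, 20.5, 6.04 and 19.5 CPM in KO and 6.13, 22.8, 6.75 and 28.7 CPM in KO_RES. Each of the 4 libraries numbered 2 was above each of the 4 numbered 1, by 1.79 on the log2 scale over both groups (SE 0.16, adjusted p = 0.0164), where 2 of 18293 genes were called (0.0109%). With the line as a block 8 of 38 members were higher in libraries numbered 2 (9.57% of all genes called). Both fits take the 8 libraries as independent, although KO and KO_RES libraries of a line and number deviated together, so each side holds 2 such pairs and these p-values are too small. Within these 8 libraries the genotype field divides KO from KO_RES exactly by number, whereas HKDC1 was high in the 4 libraries titled as rescue.

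The other genes of the pathways, beside the 46, were looked at in lists. Of 28 other coagulation and fibrinolysis genes 23 were tested in KO against control. Of these 5 were lower and 0 higher (21.7%, against 6.28% of all genes), with a median of -0.68. TFPI2, an inhibitor of plasmin and other proteases, was at 33.7, 32.9, 34.6 and 25.9 CPM in control, 0.463, 0.351, 1.25 and 1.20 CPM in KO and 0.156, 0.255, 1.12 and 0.384 CPM in KO_RES (-5.27, SE 0.60, adjusted p = 0.000946). The controls were alike for this gene. VKORC1, which recycles vitamin K (-0.79), LMAN1, the cargo receptor that exports factors V and VIII (-0.72), PROCR, the protein C receptor (-2.61), and PROZ, protein Z (-1.88), were also lower. In KO1 against control A2M, the protease inhibitor alpha-2 macroglobulin (-1.84), and F2R, a thrombin receptor (-1.65), were lower as well, and THBD, thrombomodulin, was higher (3.16, adjusted p = 0.00121). There 7 of 24 were lower and 1 higher (33.3%, against 18.1% of all genes). KO2 was above KO1 for A2M (1.57), F8, factor VIII (1.45), and TFPI2 (1.56), and below it for THBD (-1.84). These were 16.7% of the 24 tested, against 12% of all genes.

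Of 32 other complement genes 14 were tested in KO against control. CD46 and CLU were lower and 0 higher (14.3%, against 6.28% of all genes), with a median of 0.19. CD46, a membrane cofactor for factor I, stood at 659, 621, 672 and 773 CPM in control, 366, 368, 367 and 378 CPM in KO and 338, 345, 355 and 353 CPM in KO_RES (-0.88, SE 0.09, adjusted p = 0.000640). Controls were alike and all 8 other libraries lay well below them. CD59, a membrane inhibitor of the terminal pore, was higher in KO1 than in control (0.54) and lower in KO2 than in KO1 (-0.94), while CSMD1, a membrane complement regulator, was lower in KO1 (-0.83) and higher in KO2 than in KO1 (1.10). KO2 also differed from KO1 in CPN1, a carboxypeptidase chain (1.55), and C5AR2, a C5a receptor (-1.78). Of 17 other complement genes tested by line, 2 were higher and 3 lower in KO1 (29.4%, against 18.1% of all genes). In KO2 against control 0 were higher and 3 lower (17.6%, against 10% of all genes). In KO2 against KO1 2 were higher and 3 lower (29.4%, against 12% of all genes). Of 20 acute phase genes 13 were tested in KO against control. FGL1 (-2.75), TTR (-5.14) and ALB (-4.32) were lower and 0 higher (23.1%, against 6.28% of all genes), with a median of -1.72. SAA2, a serum amyloid gene, was higher in KO1 (4.32) and in KO2 (4.68), and SAA1 in KO2 (2.02), each against control. Of 17 acute phase genes tested by line, 1 was higher and 2 lower in KO1 (17.6%, against 18.1% of all genes). In KO2 2 were higher and 1 lower (17.6%, against 10% of all genes). SAA1 and SAA2 are near-identical, so their counts are uncertain. ALB divided the controls as most members did.

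Markers of other cell types were read in the same libraries. Of 7 blood markers 0 to 2 were above 3 counts, with C1QA, C1QB and C1QC at 0 throughout and a summed level of 0.113 to 0.321 CPM. Of 7 endothelial markers 1 to 3 were above 3 counts, at a sum of 0.405 to 2.03 CPM in control and under 1 CPM in KO, and the sum of 8 fibroblast markers was 6.91 to 12 CPM in control and 6.45 to 12.9 CPM in KO. Of the 5 fibroblast markers tested in KO against control, THY1 was higher (2.57, adjusted p = 0.00412) and 0 lower (20%, against 6.28% of all genes). Of the 5, 3 had negative values and the median was -0.35. In KO1 COL3A1 (-3.87) and LUM (-2.67) were lower and THY1 higher (2.91), which is 50% of 6 tested, against 18.1% of all genes. All 5 cholangiocyte markers were above 3 counts in every library. Their sum was 15.9, 13.8, 65.3 and 60.2 CPM in controls 1 to 4, so that it too divided the controls. It was 259 to 355 CPM in KO and 185 to 514 CPM in KO_RES. CFTR (5.26, adjusted p = 0.0285) and EPCAM (3.25, adjusted p = 0.00887) were higher in KO and 0 of the 5 lower, while KRT19 was at 2.57 (adjusted p = 0.450), SOX9 at -0.03 (adjusted p = 0.977) and KRT7 at -0.87 (adjusted p = 0.161). In KO2 against control KRT7 was lower (-1.50, adjusted p = 0.0182). The cholangiocyte sum was above every control in KO, where the 6 members and 6 of 10 hepatocyte markers were called lower (60%, against 6.28% of all genes). These markers included ALB, TTR, APOA1, APOH and FGB, and FGB is also 1 of the 6 members. SERPINA1, another member, is among the 10 markers too and was not called. By line, 6 of the 10 were lower in KO1 (60%, against 18.1% of all genes), with a median of -1.30. In KO2 2 of the 10 were lower (20%, against 10% of all genes), with a median of -2.43. Within KO both sums were higher in line 1, at 355, 320, 301 and 259 CPM for cholangiocyte and 12800, 24751, 1842 and 2167 CPM for hepatocyte markers. The part of the cholangiocyte sum in the result was not tested.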

How the data were processed

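The deposited files hold raw read counts per gene. The submitters' processing notes name STAR 2.6.0b and GRCh37 as what the authors used. The library kit was a stranded mRNA kit, per the labels' protocols, and trimming and the annotation are not given in the sources used here. The reverse-strand column was used, since its total was 19.8 to 21.1 times that of the other strand. Unassigned reads stayed out. Symbols came by identifier from a list of gene names (39538 of 57820 genes) and then from GENCODE release 29. Tests used R 4.3.3 and edgeR 4.0.16: filterByExpr, TMM scaling, the quasi-likelihood test and Benjamini-Hochberg adjustment over all genes tested. A fit of 3 groups (control, KO, KO_RES) tested 19200 genes at a common biological coefficient of variation of 36.2%, and one of 5 groups (the lines apart) tested 20559 genes at 25.8%. The fits were tested on simulated counts. For a single line against control, unchanged genes made up a larger share of the DESeq2 calls than of the edgeR calls. The simulated libraries were independent and varied less than those here. Apart from the planted changes they held no differences between lines, pairs or controls. How the fits behave with such differences was therefore not tested. CPM carry the TMM factors. At or under 3 counts a library, 0.0408 to 0.0849 CPM, a level is read as at the floor, which covers counting error only, as PCR copies were not told apart. SE was taken from the fold change and the F statistic.

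The 46 members, the other lists and the tests were chosen with earlier results of these data known, and no list was tested as a set. Values in every library are given for members called in a counted comparison, the fibrinogen chains, C3, C4A, C4B, SERPINA1 and F3, other members are given where neighbours or roles are described, and other pathway genes are named where called. Some items that this rule would name are not reported here. Alternatives were DESeq2 1.42.0, RLE scaling, unstranded counts, a fit with no filter, the 5-group mean, single pairs of controls, blocks, grouping by the genotype field, only libraries whose title and genotype field agree, and leaving out each library. KO and KO_RES libraries of the same line and number deviated together from their group means (r = 0.732, 0.773, 0.798 and 0.762 across genes, and 0.305 and 0.540 within a line). They were therefore taken as pairs in an alternative fit, the pairing coming from the titles. The main fits of KO_RES against KO and of rescue within a line took no pairs. No 2 libraries were alike within counting noise.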

Additional observations from a re-analysis of the deposited data

Results flagged for a closer look

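Among 117 groups of 4 libraries examined, 2 held a library far from the other 3. Chance flags about 1 in 20 groups of 4 like libraries. These groups held 2 lines, or 2 pairs of controls that differed for most members, so that rate may not hold here. C6 was at 0.2057 CPM (11 counts) in KO_RES 2_1 and at 0, 0 and 0.0148 CPM (1 count) in the other rescue libraries. F5 was at 29.88 CPM in control 4 and at 16.1, 15.3 and 16.1 CPM in controls 1 to 3. For 4 members the knockout lines differed under the same contrast with control, by a log2 difference between KO2 and KO1 of -3.598 for MBL2, -2.23 for F2, -1.62 for C8A and -1.333 for PROS1. Each line had 2 libraries, and only MBL2 and C8A kept this call when any KO library was left out.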

How the results depend on the processing

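No member called in a comparison changed direction there under the alternatives run, but against controls 3 and 4 the members' median in KO1 went from -0.84 to 0.31 and SERPINA1 in KO, not called over all controls, from -0.83 to 1.34. Calls in KO against control numbered 6, but 14 with the lines averaged from 5 groups, 13 by DESeq2, 18 against controls 1 and 2, 1 against controls 3 and 4, 0 when only the 8 libraries with agreeing title and genotype field were used (11 lower and 1 higher at an unadjusted p under 0.05) and 2 to 9 when a library was left out. In KO1 the count of 9 became 15 by DESeq2, 26 against controls 1 and 2, 22 with no filter on low counts and 0 to 12 when a library was left out. In KO2 the count of 13 became 20, 27 and 28 in the same order, and 1 to 17 when a library was left out. Between the lines the count of 4 became 9 by DESeq2, 21 with no filter, 24 with number as a replicate block (where 38.5% of all genes were called) and 2 to 3 when a library was left out. That block rests on 2 pairs whose deviations correlated at r = 0.272, so it shows only a shared number. In KO_RES against KO, 0 members were called with the replicate block of line and number or when a library was left out, 1 (C3P1) when groups followed the genotype field, and 8 when a line block was added to that, an alternative chosen after seeing the data; both take paired libraries as independent. Where leaving out a library left 1 in a line, it was assumed to vary like the other groups. For the lines, the counts with no filter rest on adjusted p far below those of the main fit and are not comparable with it. F9, PLG and C9 were too shallow to compare. The cause of these changes was not tested.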
